A study of Mus musculus with 8 samples.

Results

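Neuropilins, plexins and class 3 semaphorins are guidance receptors and ligands, and 10 of their genes were followed across 8 mouse lung tumors. They are the co-receptor genes *Nrp1* and *Nrp2*, the receptor genes *Plxna1*, *Plxna2*, *Plxna3* and *Plxnd1*, and the ligand genes *Sema3a*, *Sema3b*, *Sema3c* and *Sema3f*. Their rows were found by gene identifier among the 48709 genes of the count table, and all 10 were among the 14929 genes with enough counts to test. The set was chosen by the counts of these same tumors, in which *Nrp2* was already known to be lower where *Setd2* was targeted. The members' values in that contrast are therefore a description, with a fold change and its SE and, as a count, how many lie past the threshold used for all genes. No p-value is given for them, and they support nothing by themselves.

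The tumors fell into 2 groups of 4, *K-Ctrl* and *K-Setd2KO*. Both groups came from mice of the same K model, whose lung tumors arise once Cre acts in the airway, on a mixed B6J/129S4vJae background. Lentivirus given through the airway delivered Cre, Cas9 and a guide RNA together, and the guide was directed at GFP, a sequence foreign to the mouse, in *K-Ctrl* and at *Setd2* in *K-Setd2KO*. *Setd2* encodes a histone methyltransferase that marks the bodies of transcribed genes. By the study's account the tumors were low-grade adenomas matched for stage by histology. They were frozen whole and had not been sorted, so host cells were sequenced with the tumor cells. The age of these tumors, the sex of the mice and whether each tumor came from its own mouse are not stated in the labels, so p-values measure the spread between these tumors. The extraction text of the labels speaks of cell lines while the design text describes frozen tumors, and the samples are called tumors here.

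Class 3 semaphorins are secreted proteins that bind a neuropilin on the cell surface, and the neuropilin holds a plexin that carries the signal across the membrane. The plexin's inner part acts on small GTPases of the Ras and Rap type and on the actin skeleton, which steers axons, vessels and migrating cells. Neuropilins are also co-receptors of vascular endothelial growth factors (VEGF), with *Nrp1* known from blood vessels and *Nrp2* from lymphatic vessels. In the lung these genes are used by epithelium, endothelium, nerves and leukocytes, so a level in a whole tumor sums over several cell types.

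The promoters of 3 members and 1 further ligand are shown. These genes were lower or higher in *K-Setd2KO* on average. Each has a promoter entry that lies wholly or mostly before the first base of the deposited gene. The ligand genes *Sema3d* and *Sema3g*, also lower on average, have such entries too and are not printed. Promoter windows of RefSeq (GRCm38.p6) were found for 7 of the 10 members, and the windows of *Nrp1*, *Plxna2*, *Sema3a* and *Sema3c* lay inside the deposited gene and are not printed. The windows of *Plxnd1*, *Plxna3* and *Sema3e* end before the gene, while 32 of the 250 bases for *Nrp2* lie inside it and were left off, so that 218 are printed. Each line gives the bases just before the gene in the direction of transcription, and capitals mark GGGCGG or its reverse complement CCGCCC, the letters of the GC box. The windows are chr1:62703067-62703284 on the plus strand for *Nrp2*, chr6:115995006-115995255 on the minus strand for *Plxnd1*, chrX:74328816-74329065 on the plus strand for *Plxna3* and chr5:14025026-14025275 on the plus strand for *Sema3e*.
Nrp2: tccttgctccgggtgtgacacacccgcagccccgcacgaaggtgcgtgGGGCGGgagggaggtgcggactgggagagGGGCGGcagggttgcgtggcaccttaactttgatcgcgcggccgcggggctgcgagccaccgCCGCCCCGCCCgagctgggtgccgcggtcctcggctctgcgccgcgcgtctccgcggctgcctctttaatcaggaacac
Plxnd1: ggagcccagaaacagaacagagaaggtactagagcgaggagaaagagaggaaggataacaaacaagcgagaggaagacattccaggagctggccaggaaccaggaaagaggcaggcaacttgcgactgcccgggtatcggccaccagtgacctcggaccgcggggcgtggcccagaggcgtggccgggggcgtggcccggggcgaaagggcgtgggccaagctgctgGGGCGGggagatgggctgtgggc
Plxna3: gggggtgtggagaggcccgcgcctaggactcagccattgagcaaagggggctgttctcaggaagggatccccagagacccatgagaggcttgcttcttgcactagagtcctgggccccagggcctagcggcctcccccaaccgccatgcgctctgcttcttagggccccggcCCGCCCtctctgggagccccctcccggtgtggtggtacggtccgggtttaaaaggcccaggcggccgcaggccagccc
Sema3e: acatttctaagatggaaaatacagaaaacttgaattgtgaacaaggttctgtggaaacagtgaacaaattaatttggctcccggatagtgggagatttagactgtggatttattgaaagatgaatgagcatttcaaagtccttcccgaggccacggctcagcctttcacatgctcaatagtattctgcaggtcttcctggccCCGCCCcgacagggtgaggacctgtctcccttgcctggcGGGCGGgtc

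In the printed bases of *Nrp2* the motif occurred 4 times, against 5 in its full window of 250, with a pair overlapping by a base, and G and C made up 72.5% of the bases. The motif occurred once each in *Plxnd1* and *Plxna3*, at 64.8% and 68.0% G and C, and 2 times in *Sema3e* at 48.0%. Among the windows not printed it occurred 0 times in *Sema3d* and *Sema3a*, once each in *Sema3g* and *Nrp1*, 2 times in *Plxna2* and 3 times in *Sema3c*. Of all 32851 RefSeq promoter windows of 250 bases, 32.7% held the motif on either strand. The core of the hypoxia response element, ACGTG, was in 16.6% of all windows and, among the 7 members with a window, in *Sema3c* alone. These matches describe letters in a window and are not evidence of a bound factor.

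Libraries held 5806599 to 21290402 counts, and the totals of the groups overlapped. *Setd2*, the targeted gene, averaged 140 ± 8.81 CPM (counts per 1000000, after scaling of the libraries) in the 4 controls against 136 ± 15.5 CPM (SD) where it was targeted. Its log2 fold change was -0.05 (SE 0.115, adjusted p = 0.824 by edgeR's quasi-likelihood test, exact two-sided permutation p = 0.571 with 0.0286 as the smallest possible). Counts summed over all exons do not show whether the guide disrupted the protein, so the labels were not checked by this value. *Xist* exceeded the Y-linked genes in 1 of 4 *K-Ctrl* and 3 of 4 *K-Setd2KO* tumors, so the sexes were not balanced. Across all genes tested, 1897 passed an adjusted p of 0.05 (12.7%), of which 1155 were lower and 742 higher in *K-Setd2KO*, and the median log2 fold change was 0.03.

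*Nrp2* (ENSMUSG00000025969.15, chr1:62703285-62818695) encodes the neuropilin that binds SEMA3F and VEGF-C. Its level was 99.5, 107, 104 and 93.3 CPM in *K-Ctrl* replicates 1 to 4 and 50.5, 49.5, 47.1 and 48.4 CPM in *K-Setd2KO* replicates 1 to 4. The lowest control lay well above the highest *K-Setd2KO* tumor, and within each group the tumors were nearly level, with the highest 1.15 times the lowest in *K-Ctrl* and 1.07 times in *K-Setd2KO*. The mean was 101 ± 6.21 CPM against 48.9 ± 1.47 CPM (SD, n = 4 each), a log2 fold change of -1.05 (SE 0.0984) or 2.07-fold lower. No other member varied so little, since the pooled SD of log2 CPM within groups was 0.07 for *Nrp2* and from 0.25 in *Nrp1* to 0.64 in *Sema3f* for the rest. No exon base of *Nrp2* is shared with another annotated gene, and the 2 genes inside its span had at most 11 counts in any tumor.

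*Nrp1* (chr8:128358604-128503363) encodes the other neuropilin, which binds SEMA3A and VEGF-A. It was at 405, 369, 402 and 496 CPM in the controls and 392, 299, 248 and 366 CPM in *K-Setd2KO*. The groups overlapped, with 3 of 4 *K-Setd2KO* tumors below the lowest control, and the log2 fold change was -0.36 (SE 0.171). The 2 co-receptors thus stood apart differently between the groups, one without overlap and the other with it, and the difference between their fold changes was not tested.

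*Plxnd1* (chr6:115954811-115995005) encodes a plexin of endothelium that can bind SEMA3E without a neuropilin. Its level was 102, 109, 111 and 111 CPM in *K-Ctrl* and 97.2, 74.6, 50.9 and 82.2 CPM in *K-Setd2KO*. The controls were tightly grouped and all 4 *K-Setd2KO* tumors were lower, though replicate 1 only slightly. The log2 fold change was -0.51 (SE 0.179).

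Plexin-A receptors bind class 3 semaphorins through a neuropilin. *Plxna1* (chr6:89316314-89362620) was at 111, 80.2, 98.7 and 104 CPM in *K-Ctrl* and 105, 54.3, 86.7 and 138 CPM in *K-Setd2KO*. *Plxna2* (chr1:194618218-194816869) was at 184, 122, 163 and 152 CPM in the controls and 224, 198, 141 and 149 CPM in *K-Setd2KO*. Both overlapped between the groups, with log2 fold changes of -0.04 (SE 0.251) for *Plxna1* and 0.20 (SE 0.185) for *Plxna2*. The sign of the *Plxna1* difference turned when single tumors were left out, from -0.27 to 0.15. Of the exon bases of *Plxna1*, 10.7% lie opposite an antisense gene that had 6 to 14 counts per tumor, and whether counting used the read strand is not stated.

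*Plxna3* (chrX:74329066-74344689), the lowest member per exon length in both groups, was at 6.59, 7.98, 8.13 and 14.7 CPM in *K-Ctrl* and 15.4, 13.2, 11.4 and 25.8 CPM in *K-Setd2KO*. In 3 controls it was below every *K-Setd2KO* tumor, and *K-Ctrl* replicate 4 lay inside the *K-Setd2KO* range. The log2 fold change was 0.81 (SE 0.331), and 0.69 with a term for the sex of the tumor, since the gene is on the X chromosome.

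*Sema3c* (chr5:17574281-17730268), a ligand that acts through both neuropilins, was the most abundant ligand. It was at 497, 263, 377 and 271 CPM in *K-Ctrl* and 380, 652, 472 and 550 CPM in *K-Setd2KO*. The groups overlapped, with 2 *K-Setd2KO* tumors above the highest control, and the log2 fold change was 0.54 (SE 0.243).

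*Sema3a* (chr5:13125414-13602565) encodes the axon repellent that binds NRP1. Its level was 72.3, 55.3, 58.4 and 62.0 CPM in *K-Ctrl* and 26.2, 28.7, 61.6 and 27.2 CPM in *K-Setd2KO*. In 3 *K-Setd2KO* tumors the gene was below every control by a wide margin, while *K-Setd2KO* replicate 3 was at the control level. With all tumors the log2 fold change was -0.79 (SE 0.276), and without that replicate it was -1.18.

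*Sema3b* (ENSMUSG00000057969.15, chr9:107597674-107609229), studied in human lung cancer as a candidate tumor suppressor, is a further secreted ligand. It was at 45.2, 21.8, 36.6 and 24.5 CPM in *K-Ctrl* and 10.2, 8.11, 16.5 and 8.90 CPM in *K-Setd2KO*. The highest *K-Setd2KO* tumor was below the lowest control, and the highest tumor was 2.08 times the lowest in *K-Ctrl* and 2.04 times in *K-Setd2KO*. The mean was 32.0 ± 10.9 against 10.9 ± 3.82 CPM (SD, n = 4 each), a log2 fold change of -1.55 (SE 0.303) or 2.92-fold lower. In the library with the fewest reads the gene had 52 counts, the least of any member in any tumor.

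*Sema3f* (chr9:107681500-107710475), the ligand known for binding NRP2, was at 85.9, 23.4, 53.4 and 32.8 CPM in *K-Ctrl* and 52.0, 32.6, 33.1 and 54.1 CPM in *K-Setd2KO*. The *K-Setd2KO* tumors all fell inside the control range, and the log2 fold change was -0.19 (SE 0.382). Leaving out single tumors moved it from -0.42 to 0.23, so no direction can be given.

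**Figure D1:**
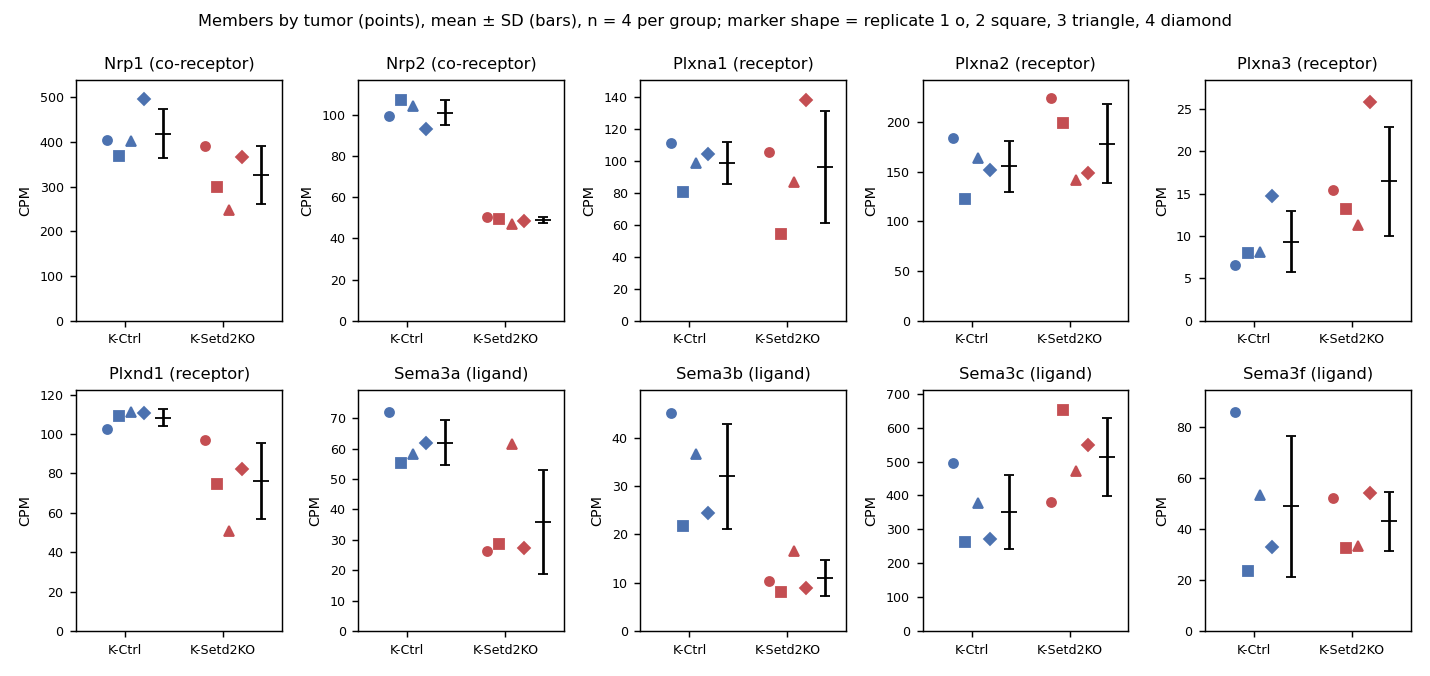
CPM of each member in each tumor (points, shaped by replicate), with the mean and SD of the 4 tumors of a group as bars; each panel has its own linear axis from 0. *Nrp2*, *Plxnd1* and *Sema3b* do not overlap between the groups, and *Sema3a* in *K-Setd2KO* replicate 3 (61.6 CPM) stands at the control level.

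Of the 10 members, 2 passed the threshold, *Nrp2* and *Sema3b*, both lower in *K-Setd2KO*, where 7.74% of all genes tested passed in that direction. The groups did not overlap in 3 members, *Nrp2*, *Plxnd1* and *Sema3b*, all lower, and in none in the other direction, against 20.3% of all genes tested in either direction, 11.2% lower and 9.06% higher. Since the set was chosen with this contrast known, nothing is read from these counts. The median log2 fold change was -0.27 over the members and 0.03 over all genes tested, with 7 members below 0 and 3 above.

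To compare levels between genes, counts were also divided by exon length (RPKM, CPM per 1000 bases of exon). In *K-Ctrl* the order of mean RPKM was *Sema3c* 49.3, *Nrp1* 42.7, *Plxnd1* 14.9, *Plxna1* 10.9, *Sema3f* 9.40, *Plxna2* 9.04, *Nrp2* 8.54, *Sema3b* 6.70, *Sema3a* 4.47 and *Plxna3* 1.19. Neighbours in this order had ranges that did not overlap only between *Nrp1* and *Plxnd1*, *Plxnd1* and *Plxna1*, and *Sema3a* and *Plxna3*. The *K-Setd2KO* order was *Sema3c* 71.9, *Nrp1* 33.3, *Plxna1* 10.6, *Plxnd1* 10.4, *Plxna2* 10.4, *Sema3f* 8.26, *Nrp2* 4.13, *Sema3a* 2.59, *Sema3b* 2.29 and *Plxna3* 2.09. Here the ranges were apart between *Sema3c* and *Nrp1*, *Nrp1* and *Plxna1*, and *Sema3f* and *Nrp2*. *Nrp2* was the lower of the 2 neuropilins in every tumor and held the seventh place in both groups.

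**Figure D2:**
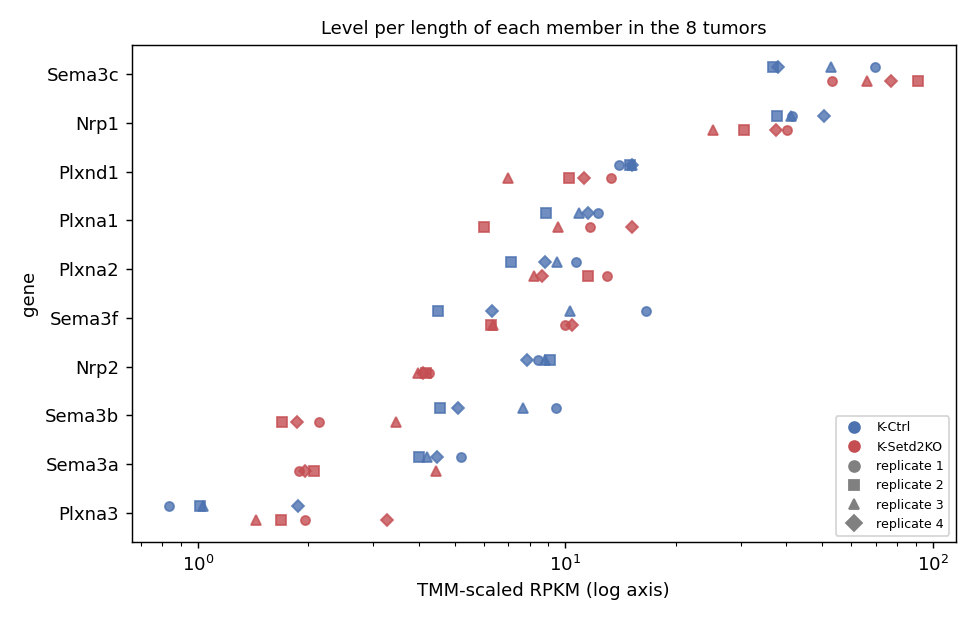
RPKM of each member (log axis) in the 8 tumors, with *K-Ctrl* drawn above *K-Setd2KO* in each row and point shapes giving the replicate. *Sema3c* and *Nrp1* lie above the other members in all tumors, and the 4 *K-Setd2KO* points of *Nrp2* (mean 4.13 RPKM) nearly coincide below the controls (mean 8.54 RPKM).

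Summed by role, co-receptor RPKM (*Nrp1* plus *Nrp2*) was 49.8, 46.8, 49.9 and 58.6 in the controls and 44.3, 34.8, 29.3 and 41.5 in *K-Setd2KO*. The sums did not overlap, at 51.3 ± 5.10 against 37.5 ± 6.76 (SD, n = 4 each). Receptor sums over the 4 plexin members overlapped, at 36.0 ± 2.72 and 33.5 ± 6.71 RPKM. Ligand sums overlapped too, at 69.9 ± 23.4 and 85.1 ± 14.6 RPKM, and the widest spread was among the controls, from 49.9 in replicate 2 to 100.8 in replicate 1.

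The make-up of each role was compared next. *Nrp2* made up 16.9, 19.4, 17.7 and 13.4% of neuropilin RPKM in *K-Ctrl*, and 9.63% in replicate 1 to 13.6% in replicate 3 of *K-Setd2KO*. *K-Ctrl* replicate 4 and *K-Setd2KO* replicate 3 nearly coincided, so this share overlapped although *Nrp2* itself did not, and *Nrp1* was 5.04 ± 0.984 times *Nrp2* in *K-Ctrl* and 8.06 ± 1.46 times in *K-Setd2KO*. *Sema3c* made up 69.0, 73.9, 70.5 and 70.4% of the RPKM of the 4 member ligands in *K-Ctrl* and 79.2, 90.1, 82.3 and 84.4% in *K-Setd2KO*, without overlap. The sum of the 4 ligands was 1.38 ± 0.498 times that of the co-receptors in *K-Ctrl* and 2.34 ± 0.628 times in *K-Setd2KO*, and *K-Ctrl* replicate 1 lay inside the *K-Setd2KO* range.

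**Figure D3:**
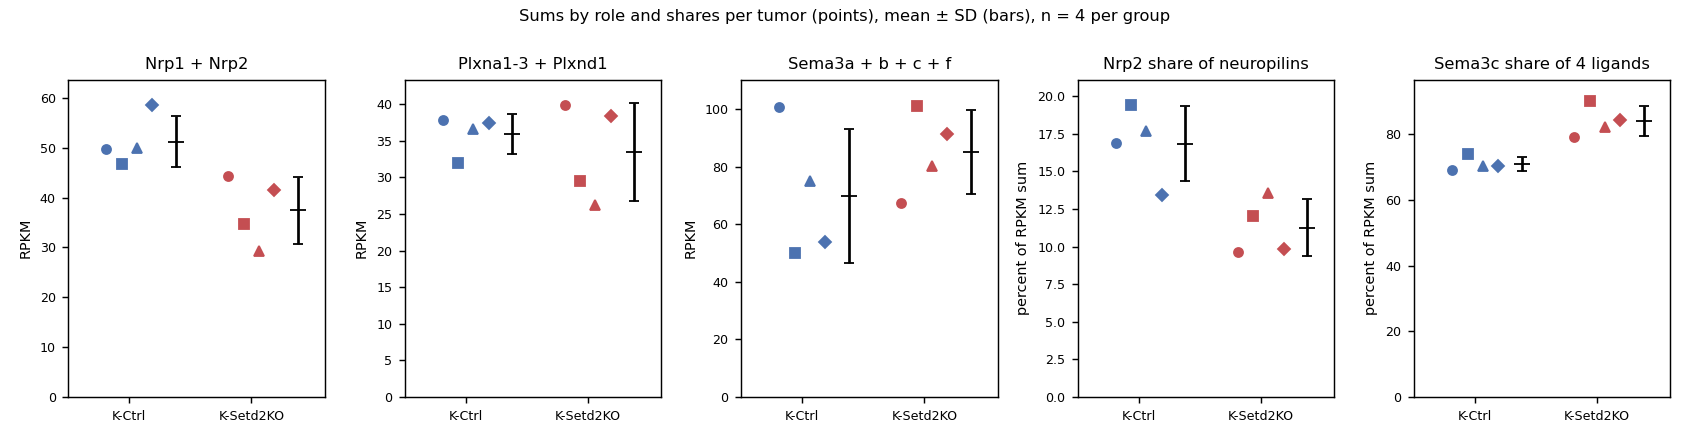
Summed RPKM of co-receptors, receptors and ligands, and the shares of *Nrp2* among neuropilins and of *Sema3c* among the 4 member ligands (percent), per tumor with mean and SD of 4. The co-receptor sums (51.3 against 37.5 RPKM) and the *Sema3c* shares do not overlap between the groups, while receptor and ligand sums and the *Nrp2* share do.

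The rest of the semaphorin and plexin family was examined with the same fit. These genes were not used to choose the members, though all gene lists were drawn up with earlier results of these data known. Of 21 genes listed, 19 could be tested; 5 were lower and 2 higher in *K-Setd2KO*, where 7.74% and 4.97% of all genes tested passed in those directions. The median log2 fold change of the 19 was -0.62. *Plxnb3* and *Sema5b* had too few counts to test.

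The class 3 ligands outside the set had the most negative fold changes of the tested family genes. *Sema3e*, the ligand of PLXND1 in vessel patterning, was at 186, 82.3, 113 and 62.9 CPM in *K-Ctrl* and 19.8, 12.5, 11.5 and 22.1 CPM in *K-Setd2KO*. The groups were far apart, and *Sema3e* fell by 2.76 on the log2 scale (SE 0.370, adjusted p = 0.00643 by edgeR with Benjamini-Hochberg adjustment). *Sema3d* fell by 2.57 (SE 0.555, adjusted p = 0.0207), from 7.41 to 19.3 CPM in *K-Ctrl* down to 0.459 to 4.06 CPM in *K-Setd2KO*, and without *K-Ctrl* replicate 1 its adjusted p was 0.0519, the highest among alternatives that reached down to 4.44e-05. *Sema3g*, an endothelial ligand of NRP2, had a log2 fold change of -1.95 (SE 0.568, adjusted p = 0.0544), with 91.6 CPM in *K-Ctrl* replicate 1 and 12.8 to 39.4 CPM in the other controls. Over the 16 alternatives its log2 fold change ran from -2.25 to -1.18, and it passed in 4. *Sema3d*, *Sema3e* and *Sema3g* together came to 22.4 ± 14.1 RPKM in the controls and 4.33 ± 0.613 RPKM in *K-Setd2KO* without overlap. The sum over all 7 class 3 ligands was 92.3 ± 37.3 and 89.4 ± 14.2 RPKM. It was 143 RPKM in *K-Ctrl* replicate 1, 63.3, 97.1 and 65.6 RPKM in the other controls, and 72.5 to 105 RPKM in *K-Setd2KO*. *Sema3c* made up 54.7 ± 4.42% of that wider sum in *K-Ctrl* and 79.8 ± 5.46% in *K-Setd2KO*.

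Among the plexins outside the set, *Plxna4*, a receptor for SEMA3A in sensory axons, was at 138, 117, 124 and 146 CPM in *K-Ctrl* and 272, 207, 329 and 299 CPM in *K-Setd2KO*. Every *K-Setd2KO* tumor was above every control, and *Plxna4* rose by a log2 fold change of 1.08 (SE 0.158, adjusted p = 0.0073, edgeR). It made up 30.7 ± 1.92% of plexin-A RPKM in the controls and 46.0 ± 5.94% in *K-Setd2KO*, also without overlap. *Plxna1*, *Plxnd1* and *Plxna4* lie on chromosome 6, whose 839 tested genes had a median log2 fold change of 0.27, and the median deviation of that chromosome from the controls was 0.33, -0.03, 0.32 and 0.38 in *K-Setd2KO* replicates 1 to 4. Less that median, the log2 fold change was 0.81 for *Plxna4*, -0.31 for *Plxna1* and -0.78 for *Plxnd1*, and the part of the chromosome in these values was not tested. *Plxnc1*, a receptor for SEMA7A on leukocytes and other cells, fell by 1.64 (SE 0.232, adjusted p = 0.00643), from 40.3 ± 4.87 to 12.9 ± 4.02 CPM. *Plxnb2* and *Plxnb1*, the most abundant family genes that did not pass, had log2 fold changes of 0.06 (SE 0.209) and 0.01 (SE 0.173).

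In the other semaphorin classes, *Sema4g* fell by 1.50 (adjusted p = 0.0236) and *Sema6a* fell by 1.70 (adjusted p = 0.035), while *Sema4a* rose by 0.82 (adjusted p = 0.0455, edgeR). These calls were less stable than those of *Sema3e*, *Plxnc1* and *Plxna4*, which passed in all 16 alternative analyses. *Sema4g* passed in 12 of 16, *Sema6a* in 9 and *Sema4a* in 8. All 3 were lost without single tumors and also with a term for the sex of the tumor (adjusted p = 0.0568, 0.134 and 0.117, edgeR). *Sema6a* in *K-Ctrl* replicate 1 was at 62.7 CPM against 20.2 to 26.5 CPM in the other controls.

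**Figure D4:**
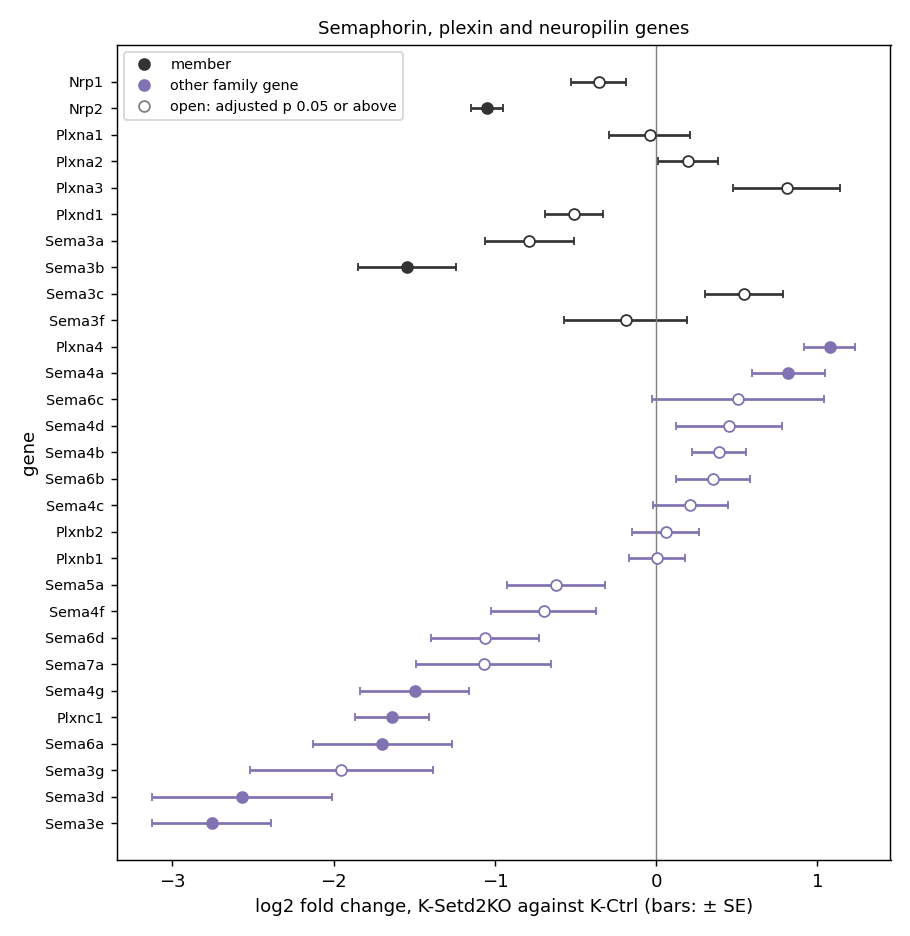
Log2 fold change of *K-Setd2KO* against *K-Ctrl* with its SE (edgeR, 4 tumors a group) for the 10 members, in black as a description, and the 19 other tested family genes, in purple; filled points passed an adjusted p of 0.05 over all genes. *Sema3e* (-2.76), *Sema3d* (-2.57) and *Plxna4* (1.08) lie farther out than *Nrp2* (-1.05), whose error bar is the shortest.

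Neuropilins also serve VEGF signaling. None of the 8 VEGF ligand and receptor genes passed by edgeR, where 12.7% of all genes tested did. DESeq2 called 4 of them, all lower in *K-Setd2KO*, where it called 21.4% of all genes tested and 12.5% as lower, and limma voom called 0. Those 4 were *Vegfd*, *Kdr*, *Flt4* and *Vegfc*, with edgeR log2 fold changes of -2.51, -1.45, -1.21 and -0.99 and adjusted p of 0.069, 0.0645, 0.0547 and 0.068. *Vegfd* was at 36.7 CPM in *K-Ctrl* replicate 1 and 5.53 to 19.9 CPM in the other controls. Its log2 fold change ran from -3.13 to -1.87 over the alternatives that tested it. *Vegfc* and *Vegfd* encode the lymphatic ligands, and *Kdr* and *Flt4* their receptors. In 3 of the 8 listed genes, *Vegfc*, *Kdr* and *Flt4*, every *K-Setd2KO* tumor was below every control. The same held for 11.2% of all genes tested. *Vegfa*, the main blood vessel ligand, was at 774, 378, 625 and 403 CPM in *K-Ctrl* and 360, 888, 760 and 306 CPM in *K-Setd2KO*, with a log2 fold change of 0.09 (SE 0.381). *Flt1*, a VEGF receptor that holds VEGF-A back, had a log2 fold change of -0.86 (SE 0.373, adjusted p = 0.159). The median over the 8 genes was -0.92.

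Inside the cell, plexins act through GTPases, collapsin response mediators and MICAL enzymes. Of 34 tested signaling genes, 6 passed, all lower in *K-Setd2KO*, where 7.74% of all genes tested passed in that direction and 12.7% in either. The median log2 fold change of the 34 was -0.14. *Rnd1*, a GTPase that binds plexins, fell by 2.10 (adjusted p = 0.00738), but from only 3.75 to 6.28 CPM down to 1.03 to 1.38 CPM. *Nrcam*, an adhesion molecule that joins NRP2 in axons, fell by 2.06 (adjusted p = 0.0354), and *Dpysl3*, a collapsin response mediator, fell by 1.54 (adjusted p = 0.0226). *Mical3*, *Mras* and *Rnd3* fell by 1.40, 1.36 and 0.81 (adjusted p = 0.0227, 0.0372 and 0.0338, edgeR). Of the 6, only *Rnd1* passed in every alternative that could test it. The most abundant genes that did not pass were *Rhoa* and *Rap1b*, whose log2 fold changes were -0.12 (SE 0.155) and 0.05 (SE 0.112).

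Semaphorins are cut by proprotein convertases and neuropilins by ADAM proteases, which changes their activity. Of 7 such genes, 2 passed, both higher in *K-Setd2KO*, where 4.97% of all genes tested passed in that direction and 12.7% in either. *Pcsk6*, a secreted convertase, was at 43.5, 53.0, 40.3 and 49.4 CPM in *K-Ctrl* and 379, 73.0, 228 and 501 CPM in *K-Setd2KO*. The controls were level while the *K-Setd2KO* tumors spread from 73.0 to 501 CPM, all above them, and *Pcsk6* rose by 2.66 (SE 0.496, adjusted p = 0.0134, edgeR) and passed in all 16 alternatives. *Pcsk7* rose by 0.46 (adjusted p = 0.0349) and passed in 7 of 16. *Adam10* and *Adam17*, the most abundant that did not pass, had log2 fold changes of -0.39 (SE 0.125) and -0.30 (SE 0.132).

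Cell type markers also differed between the groups, where 7.74% of all genes tested passed as lower and 4.97% as higher. In bulk tumors, fewer cells of a type and less RNA per cell cannot be told apart. The 6 pan-leukocyte markers summed to 971 to 1745 CPM in *K-Ctrl* and to 517 to 746 CPM in *K-Setd2KO*, with 4 of 6 markers lower, and 10 macrophage markers summed to 2028 to 6105 and 380 to 2552 CPM, with 5 lower. Much of each sum came from 1 abundant marker that did not pass, *Lcp1* among the leukocyte and *Chil3* among the macrophage markers. Without *Lcp1* the leukocyte sum was 417 to 836 CPM in *K-Ctrl* and 145 to 199.8 CPM in *K-Setd2KO*, and without *Chil3* the macrophage sum was 499.8 to 1509 and 174 to 338 CPM, so that neither overlapped. Lymphatic endothelial markers summed to 76.8 to 404 and 27.8 to 42.3 CPM, with 3 of 4 lower. General endothelial markers summed to 585 to 2138 and 304 to 661 CPM, with 2 of 10 lower, and fibroblast markers to 351 to 757 and 122 to 421 CPM, with 2 of 6 lower. The 8 markers of alveolar type 2 cells, the epithelium that such tumors resemble, summed to 44262 to 65438 CPM in *K-Ctrl* and 53005 to 73968 CPM in *K-Setd2KO*. Among them *Sftpb* rose by 1.09 (adjusted p = 0.0122) and *Napsa* fell by 1.60 (adjusted p = 0.0338, edgeR), while *Sftpc* and *Sftpa1*, which make up most of the sum, had log2 fold changes of -0.0025 and -0.028. Of 8 general epithelial markers, 3 were higher in *K-Setd2KO*. T cell markers summed to 17.5 to 94.3 and 3.97 to 31.6 CPM with none of 6 passing by edgeR, smooth muscle and pericyte markers overlapped with 1 of 7 higher, and alveolar type 1 markers had 1 of 7 lower. Of the defining markers of these lists, only *Sox10*, in the Schwann cell list, was at 0 counts in every tumor.

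*Nrp2* was also set beside these markers tumor by tumor. The general endothelial sum was 2138, 585, 1146 and 717 CPM in *K-Ctrl* replicates 1 to 4, where *Nrp2* was 99.5, 107, 104 and 93.3 CPM. The control with the least endothelial signal thus had the most *Nrp2*. The pan-leukocyte sum was 1022, 1745, 1604 and 971 CPM in the same tumors and 721, 517, 571 and 746 CPM in *K-Setd2KO*, where *Nrp2* was 50.5, 49.5, 47.1 and 48.4 CPM. The tumors stood in the order of *Nrp2* in *K-Ctrl* but not in *K-Setd2KO*. Without *Lcp1* the order of the controls was unchanged, and the *K-Setd2KO* tumors came to 199.8, 168, 164 and 145 CPM. There only replicates 3 and 4 stood out of the order of *Nrp2*. The groups thus held separate parts of the leukocyte range as well as of the *Nrp2* range, and the part of leukocytes or vessels in its difference was not tested. *Sema3e* was 186 CPM in *K-Ctrl* replicate 1, the tumor with the most endothelial signal, and 82.3, 113 and 62.9 CPM in the other controls. All 7 tested class 3 semaphorins were highest among the controls in that tumor. In *K-Setd2KO* the endothelial sum was 661, 530, 393 and 304 CPM, where *Sema3e* was 19.8, 12.5, 11.5 and 22.1 CPM. The part of endothelium in *Sema3e* was not tested.

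**Figure D5:**
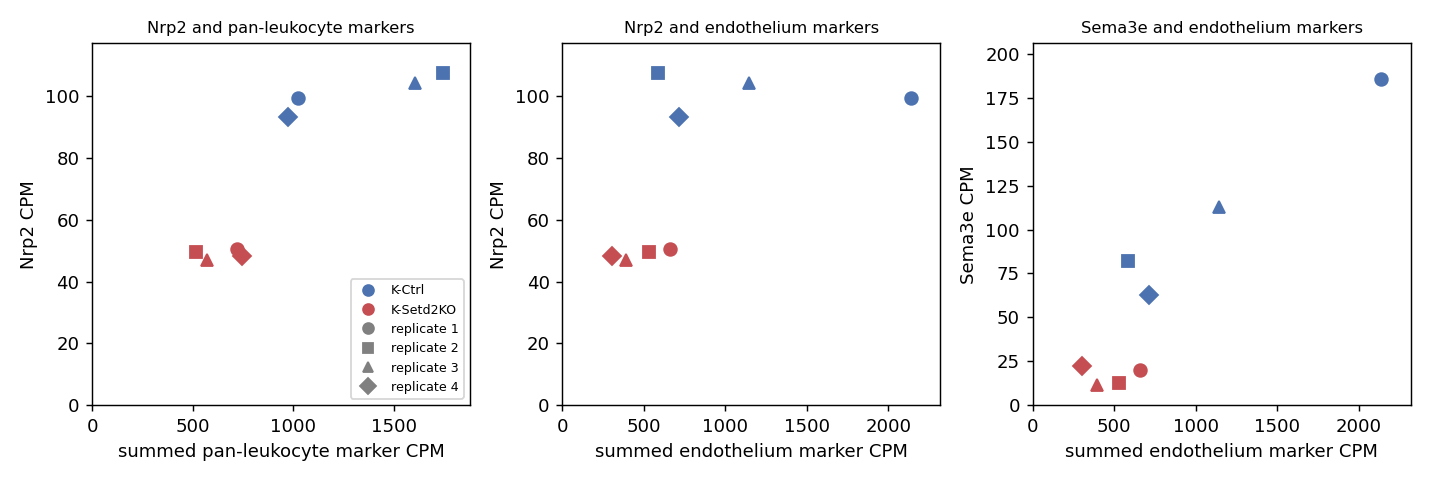
CPM of *Nrp2* against the summed CPM of pan-leukocyte and general endothelial markers, and CPM of *Sema3e* against the endothelial sum, 1 point per tumor with color for the group and shape for the replicate. *Nrp2* lies at 93.3 to 107 CPM in *K-Ctrl* and 47.1 to 50.5 CPM in *K-Setd2KO*, and the leukocyte sums are apart too (971 to 1745 against 517 to 746 CPM). *Sema3e* is highest (186 CPM) in the tumor with the largest endothelial sum (2138 CPM). In *K-Setd2KO* replicate 1 the endothelial sum (661 CPM) is above that of *K-Ctrl* replicate 2 (585 CPM), with *Sema3e* at 19.8 and 82.3 CPM.

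The genes whose pattern over the 8 tumors was most like that of *Nrp2* were *Igfbp5*, *Pkia*, *2610021A01Rik*, *Arhgap30* and *Plcd4*, with Pearson r of log2 CPM from 0.990 to 0.995. The tumors form 2 separate groups in each of these genes, so r mostly reflects the difference between the groups and is given as a description. *Igfbp5*, a binding protein of insulin-like growth factors on the same chromosome, was at 193, 184, 204 and 131 CPM in *K-Ctrl* and 36.4, 37.6, 34.3 and 33.2 CPM in *K-Setd2KO*. Like *Nrp2* it was almost level within *K-Setd2KO*, and its log2 fold change was -2.33 (SE 0.153), given without a test since the gene was picked for this pattern.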

How the data were processed

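The authors deposited raw counts of reads per gene for 8 tumors, with no normalization, gene coordinates and summed exon lengths. Per the submitters' processing notes, reads were aligned with STAR 2.5.2b to GRCm38.p4 and counted with featureCounts 1.5.0-p1. The annotation release and the strand setting are not given in the sources used here. Libraries were stranded poly(A) mRNA. GENCODE M21 supplied symbols for 48349 of 48709 identifiers.

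Counts were fitted with edgeR 4.0.16 in R 4.3.3 (filterByExpr, TMM scaling, robust quasi-likelihood, genotype alone), with Benjamini-Hochberg adjustment over 14929 genes. SE is the log2 fold change over the root of F. CPM and RPKM used TMM-scaled totals. Log2 CPM for likeness used a prior count of 2. The study's tool, DESeq2 (1.42.0), limma voom (limma 3.58.1), other scalings and filters, a replicate block, a sex term and leaving out each tumor were alternatives.

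The members, gene lists and markers were chosen with earlier results of these data known. Genes named are the 10 members, *Setd2*, up to 8 passing genes by p and the 2 most abundant others of each pathway list, and the 5 genes most like *Nrp2* over 8 tumors. Any other gene named, such as *Sema3g*, *Plxnb3*, *Sema5b*, *Vegfc*, *Vegfd*, *Kdr*, *Flt4* and markers, was chosen after its values were seen, as were the marker sums without *Lcp1* or *Chil3*. The replicate numbers of the labels did not pair tumors. The allele that defines the K model is not reported here.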

Additional observations from a re-analysis of the deposited data

Results flagged for a closer look

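In groups of 4 tumors, a single tumor was called apart when its gap to the nearest other took up most of the group's range, beyond the 95% critical value of Dixon's test. The CPM of 84 genes (the members, *Setd2*, every tested gene of the pathway lists and the 5 genes most like *Nrp2*), the sums by role and the *Nrp2* share were looked at in each group. A tumor stood apart in 8 of these 176 groups, where chance gives about 1 in 20 or 8.8. *Sema3a* was at 61.6 CPM in *K-Setd2KO* replicate 3 and 26.2 to 28.7 CPM in the other *K-Setd2KO* tumors. *Sema6a* was at 62.7 CPM in *K-Ctrl* replicate 1 and 20.2 to 26.5 CPM in the other controls. *Adam10* was at 240.3 CPM in *K-Setd2KO* replicate 3 and 194.8 to 200.5 CPM in the other *K-Setd2KO* tumors.

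A further 5 were found among the pathway genes. *Pgf*, which encodes a VEGF receptor ligand, was at 7.497 CPM in *K-Ctrl* replicate 4 and 1.89 to 2.10 CPM in the other controls. *Sema6c* was at 0.171 CPM in *K-Setd2KO* replicate 4 and 0.918 to 1.02 CPM in the other *K-Setd2KO* tumors. *Mical2* was at 349 CPM in *K-Setd2KO* replicate 2 and 171 to 197 CPM in the rest of its group. *Dpysl2* was at 167 CPM in *K-Ctrl* replicate 1 and 92.6 to 103.9 CPM in the other controls. *Cfl1*, which encodes the actin-severing cofilin, was at 372.5 CPM in *K-Ctrl* replicate 4 and 393 to 396 CPM in the other controls.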

How the results depend on the processing

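As a description of members chosen on this contrast, which supports nothing by itself, log2 fold changes over the 16 alternatives were -1.10 to -1.02 in *Nrp2* and -1.81 to -1.18 in *Sema3b*. Only *Plxna1* and *Sema3f* changed sign among the members. DESeq2 called 3194 genes, with 4 VEGF, 10 signaling and 4 protease genes. Without a filter on low counts, and with the sex term, 1 protease gene passed, and with at least 10 counts in every tumor 1 VEGF gene passed. With the sex term, 1237 genes and 4 other family genes (*Plxna4*, *Plxnc1*, *Sema3d* and *Sema3e*) passed. Leaving out each tumor gave 763 to 2058 genes, 2 to 3 members, 4 to 8 other family genes, 0 to 2 VEGF, 1 to 7 signaling and 1 to 2 protease genes. The count over all genes fell by more than 1.5 times without *K-Ctrl* replicate 1 (938), 2 (1126) or 3 (763) and without *K-Setd2KO* replicate 3 (1011). Without *K-Ctrl* replicate 1, signaling calls came to 1. The cause of these moves was not tested.

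Single tumors decided some calls. *Sema4a* did not pass without *K-Ctrl* replicate 1, 3 or 4 or *K-Setd2KO* replicate 1, 3 or 4 (adjusted p up to 0.114), *Sema4g* without *K-Ctrl* replicate 3 or *K-Setd2KO* replicate 1 or 3 (up to 0.0715), and *Sema6a* without *K-Ctrl* replicate 1 or 3 or *K-Setd2KO* replicate 3 or 4 (up to 0.0918, edgeR). *Dpysl3*, *Mical3*, *Rnd3*, *Mras*, *Nrcam* and *Pcsk7* each lost their call without 3 to 6 of the tumors taken singly, with adjusted p up to 0.0555, 0.0613, 0.0841, 0.0948, 0.0932 and 0.106. The sex term also ended the calls of *Sema4a*, *Sema4g*, *Sema6a*, *Mras*, *Nrcam* and *Pcsk7* (0.117, 0.0568, 0.134, 0.149, 0.0735 and 0.0549). Over all results, 282 of 312 alternative values stayed within the limit set for them, and no called value turned its direction.

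Same-numbered tumors did not deviate together (r from -0.07 to 0.19, 1 of 4 closest to its own number), so the numbers are taken as names. With the replicate block, 1341 genes, 2 VEGF genes and 1 protease gene passed. The block also ended the calls of *Sema4a*, *Rnd3* and *Pcsk7* (adjusted p = 0.114, 0.0587 and 0.0943, edgeR). Counts limit the precision of low genes such as *Sema3d*, which had 6 counts in *K-Setd2KO* replicate 2, and the shallowest tumor had 5806599 counts in all.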
